A study of Xenopus laevis with 30 samples.

Results

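The data concern the thyroid hormone axis of Xenopus laevis, an African clawed frog, from the cleaving embryo to the tadpole that has not yet entered metamorphosis. Members were the probe sets whose single platform gene symbol, with the L or S suffix of the frog's duplicated chromosomes removed, was thra, thrb, dio1, dio2, dio3, klf9, tshb, cga or rxra. The rule found 11 probe sets of 7 of these 9 genes, among 32635 probe sets and 9271 single-symbol genes on the array. No single-symbol probe set was found for thrb or tshb, which were not analysed here. The members were 1 probe set each for thra.L, dio1.L, dio3.L, dio3.S, klf9.L, rxra.L and cga.L, 2 for cga.S and 2 for dio2.L, of which 1 carries S1 and 1 carries A1 in its name.

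Thyroid hormone is made in the thyroid gland under the control of thyrotropin from the pituitary, a dimer of the subunits encoded by cga and tshb. Deiodinases in the tissues set how much active hormone a cell sees: dio2 makes the active form, dio3 inactivates it, and dio1 can do both. The hormone binds the nuclear receptors encoded by thra and thrb, which act with a retinoid X receptor such as rxra, and klf9 is among the genes they switch on directly at frog metamorphosis.

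RNA came from whole wild-type embryos of mixed sex, pooled from several animals per sample, at 15 stages: 2, 5 and 9 as the earliest, then 11, 13, 17 and 19, then 21, 23, 26, 28 and 31, and last 37/38, 43 and 48. Each stage had 2 biological replicates by the labels, 30 one-colour Affymetrix arrays in all, and the only difference between groups that the labels give was the stage. In the usual staging of this frog, the early stages are cleavage and blastula, stage 11 is a gastrula, stages 13 to 19 are neurulae, the stages in the twenties to 31 are tailbud embryos, and stages 43 and 48 are tadpoles before metamorphosis. A whole embryo mixes all its tissues, so more RNA per cell and more cells of a kind cannot be told apart in any value below.

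Signals are the authors' MAS5 intensities in arbitrary units, scaled so that the 2% trimmed mean of every array was 500 units. The median signal of an array lay between 105.6 and 184.1 units and is used here as a chosen floor, since no detection calls were used: a change whose dimmer stage lies under it is given as at least N-fold against that floor, and no linear fold is given where both stages lie under it. A log2 change printed for such stages is the fitted difference of the deposited log2 signals, given with its test, and its size is not read as a measured fold. Over the tested probe sets, the log2 signals of a stage's replicates correlated at 0.974 to 0.985, and in 15 of 15 stages each array correlated best with its own replicate. The stage markers h1-8 and hba2 followed the labels: h1-8, the linker histone of the egg, averaged 2.47 units at stage 48 and 9724 units at stage 2, and hba2, a larval globin, averaged 19381 units at stage 48 and 15.3 units at stage 2. The globins hba1 and hbg1 of the same list averaged 43.4 and 44.1 units at stage 48, under the array median. The poly-A control transcripts were not constant: their mean log2 signal was 7.60 and 7.51 on the stage 48 arrays, against 9.24 and 9.09 on the stage 2 arrays. Scaling to these controls instead moved the median change of all tested probe sets between stage 48 and stage 2 to 1.57, against -0.04 with the deposited scaling and -0.81 with median centring. Changes are therefore relative to the total signal of an array.

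Of the 11 probe sets, 3 passed the filter of both arrays of at least 1 stage above their own array's median: dio1.L, dio3.L and rxra.L. They passed through the stages in which they were bright, rxra.L through stage 48 alone, so that their being called is no evidence about the axis. All 3 were called by the F test over the 15 stages, as were 99.8% of all 23403 tested probe sets. The other 8 lay under the median of every array and entered only the fit without a filter, in which 9 of the 11 probe sets were called by the F test, as were 89.6% of all 32539. Those not called were cga.L (limma adjusted p = 0.42) and the S1 probe set of dio2.L (0.13).

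**Figure D1:**
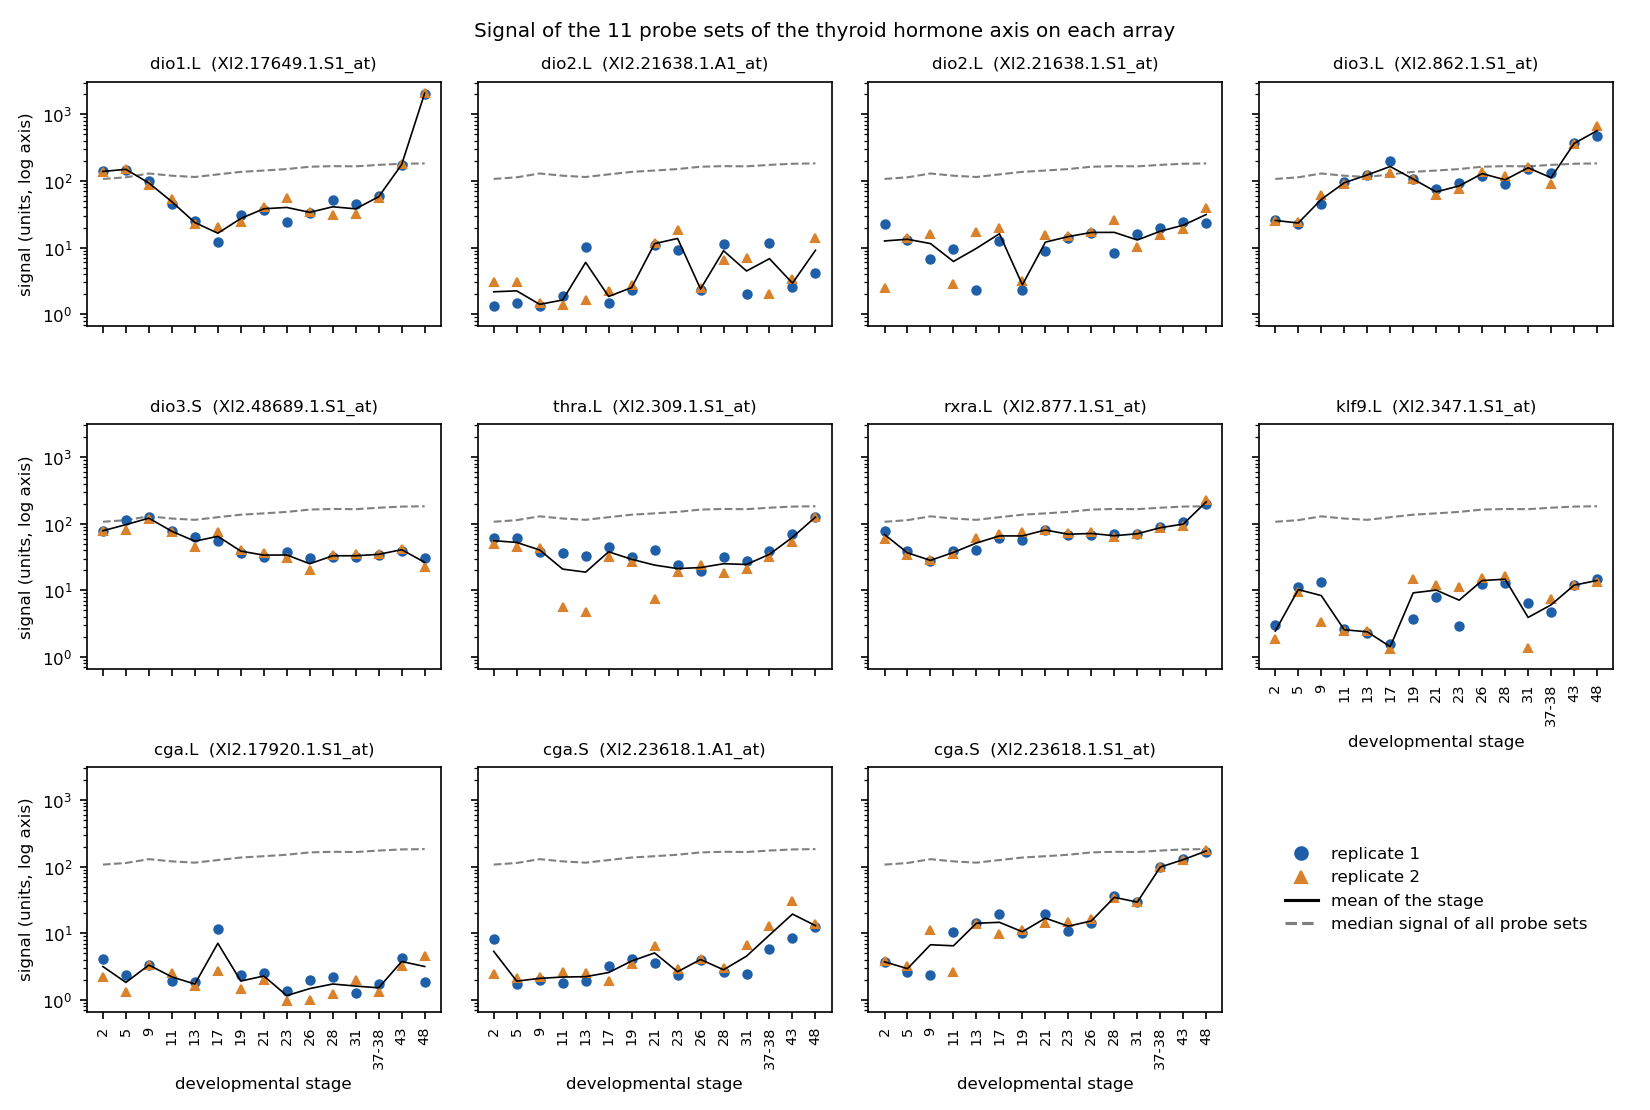
Signal in units on a log axis against developmental stage for each of the 11 probe sets, with a point per array, a line through the stage means and a dashed line for the median signal of the arrays. Only dio1.L, dio3.L and rxra.L rise above the dashed line, dio1.L to 2076 units at stage 48.

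Among the deiodinases, dio1.L changed most. Its signal was 142 and 136 units on the arrays of stage 2, 148 and 151 at stage 5, 101 and 85.8 at stage 9, 44.4 and 53.0 at stage 11, 25.3 and 22.3 at stage 13 and 12.2 and 20.7 at stage 17. It was 30.6 and 24.1 units at stage 19, 36.1 and 40.4 at stage 21, 24.1 and 55.9 at stage 23, 32.8 and 34.8 at stage 26, 51.0 and 30.9 at stage 28 and 44.6 and 31.8 at stage 31. It was 60.3 and 55.7 units at stage 37/38, 173 and 180 at stage 43 and 2035 and 2118 at stage 48. The signal was above the array median in cleavage, under it from blastula to hatching and highest in the stage 48 tadpole, whose arrays did not overlap those of any other stage.

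Between stage 48 and stage 31, dio1.L averaged 2076 ± 59.0 and 38.2 ± 9.05 units (SD, n = 2 each), a log2 change of 5.79 (SE 0.33, limma adjusted p = 3.3e-12) and at least 12.5-fold against the floor. In this interval 69.4% of the tested probe sets were called, 29.7% as higher and 39.7% as lower. Most of the rise fell in the last step: stage 48 exceeded stage 43 by a log2 change of 3.56, at least 11.4-fold (limma adjusted p = 1.7e-08), in a step that called 46.1% of the tested probe sets. The step before it, stage 43 over stage 37/38, had a log2 change of 1.61 (limma adjusted p = 8.8e-04), with stage 43 at the array median (0.974 of it on average). Both early cleavage stages and stage 48 lay above the median. The 14.9-fold difference between stage 48 (2076 units) and stage 2 (139 units) therefore does not rest on the floor. Its log2 change was 3.90 (limma adjusted p = 6.3e-10) in a comparison that called 90.4% of the probe sets. Over 43 alternatives, other scalings among them, that log2 change ran between 3.13 and 5.51.

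The early signal of dio1.L fell between cleavage and gastrula, and was already under the array median in the blastula (0.720 of it at stage 9). It averaged 48.7 ± 6.09 units at stage 11 and 149.5 ± 2.02 units at stage 5 (SD, n = 2 each), a log2 change of -1.62 (SE 0.33, limma adjusted p = 2.1e-04) and at least 1.25-fold lower against the floor. In that interval 67.0% of the tested probe sets were called. Among the neighbouring steps, stage 11 was lower than stage 9 (log2 change -0.94, limma adjusted p = 0.019; 60.2% of the probe sets called) and stage 13 lower than stage 11 (log2 change -1.03, limma adjusted p = 0.0094; 68.2% called), both among values under the array median. The first of these did not hold without replicate 1 of stage 9 (limma adjusted p = 0.10) or without replicate 1 of stage 11 (0.10), and the second without replicate 2 of stage 11 (0.063) or of stage 13 (0.055). Stage 21 against stage 11 and stage 31 against stage 21 gave log2 changes of -0.35 and -0.02 (limma adjusted p = 0.34 and 0.96).

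The inactivating enzyme dio3 was read by 1 probe set for each of its copies, and relative to total signal dio3.L was higher and dio3.S lower at stage 48 than at stage 2, though the dio3.S change was 0.02 on the log2 scale with poly-A scaling. The dio3.L signal was 26.1 and 25.1 units at stage 2, 22.7 and 24.1 at stage 5, 44.7 and 60.9 at stage 9, 97.3 and 90.5 at stage 11, 121 and 125 at stage 13 and 197 and 133 at stage 17. It was 106 and 108 units at stage 19, 74.8 and 62.3 at stage 21, 93.2 and 75.3 at stage 23, 120 and 138 at stage 26, 89.0 and 119 at stage 28 and 153 and 163 at stage 31. It was 133 and 90.9 units at stage 37/38, 367 and 364 at stage 43 and 471 and 665 at stage 48. The 8 arrays above their median were those of stages 13, 17, 43 and 48, and the arrays of stages 43 and 48 exceeded all others.

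The first rise of dio3.L came between cleavage and gastrula: 93.9 ± 4.84 units at stage 11 and 23.4 ± 0.983 units at stage 5 (SD, n = 2 each), a log2 change of 2.01 (SE 0.23, limma adjusted p = 1.3e-07). Both the step from blastula to gastrula (stage 11 over stage 9, log2 change 0.85, limma adjusted p = 0.0032) and the step before it (stage 9 over stage 5, log2 change 1.16, limma adjusted p = 3.7e-04) were called, and the step of stage 9 over stage 5 called 38.8% of all tested probe sets. The first did not hold without replicate 1 of stage 9 (adjusted p = 0.059). Over the same interval dio1.L fell. These early values of dio3.L all lay under the median.

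A second rise of dio3.L came in the tadpole. Stage 43 averaged 365 ± 2.18 units and stage 37/38 112 ± 29.5 units (SD, n = 2 each), a log2 change of 1.73 (limma adjusted p = 9.1e-06) and at least 2.09-fold, in a step that called 30.5% of the probe sets. Stage 48 averaged 568 ± 138 units and exceeded stage 43 by 1.53-fold (log2 change 0.62, limma adjusted p = 0.033). The call was lost with poly-A scaling (log2 change 0.51, limma adjusted p = 0.17). That last step rests on single arrays, with adjusted p of 0.32 without replicate 2 of stage 48, 0.10 without replicate 1 of stage 43 and 0.11 without replicate 2 of stage 43. Against stage 31, stage 48 was at least 3.38-fold higher (log2 change 1.83, SE 0.23, limma adjusted p = 5.4e-07), and against stage 2 at least 5.22-fold (log2 change 4.45, limma adjusted p = 1.5e-13). The rise of stage 31 over stage 21 (log2 change 1.21, limma adjusted p = 1.7e-04) was the only call among the 3 tested members in an interval where 52.4% of all probe sets were called. Both stages lay under the floor, and the rise started from a low of 68.6 units at stage 21, after 165 units at stage 17. Stage 21 against stage 11 was not called (log2 change -0.46, limma adjusted p = 0.072). Stage 26 over stage 23 was a borderline step (log2 change 0.62, limma adjusted p = 0.045; 31.7% called), lost in 20 of 41 alternatives.

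The dio3.S signal never passed the median of an array. It was 78.8 and 78.4 units at stage 2, 113 and 80.9 at stage 5, 124 and 119 at stage 9, 79.0 and 75.3 at stage 11, 64.4 and 45.2 at stage 13 and 54.3 and 75.2 at stage 17, and from stage 19 to stage 48 all arrays lay between 20.0 and 42.3 units. It was brightest in the blastula, at 0.938 of the array median, and no array from stage 19 on overlapped those of stages 2 to 17. In the fit without a filter, stage 48 averaged 26.4 ± 5.82 and stage 2 78.6 ± 0.300 units (SD, n = 2 each), a log2 change of -1.59 (SE 0.28, limma adjusted p = 2.1e-05), where 78.2% of all probe sets were called. This fall is relative to total signal: with the arrays scaled to the poly-A controls its log2 change was 0.02 (adjusted p = 0.96). Between stage 48 and stage 31 the log2 change was -0.34 (limma adjusted p = 0.31).

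Whether the copies differ in course can be tested on the difference of their log2 signals on each array, with 50 units added to each signal. No member gene had 2 tested probe sets, so that test covered the pairs without a filter, chosen after the data were seen. The difference of dio3.S minus dio3.L changed over the stages (F test, limma adjusted p = 7.0e-12 over 8817 pairs), as did that of 92.9% of all such pairs. It was lower at stage 48 than at stage 31 by a log2 change of -1.68 (SE 0.21, limma adjusted p = 1.1e-06), where 49.8% of all pairs were called, and lower than at stage 2 by -3.77 (limma adjusted p = 1.1e-12). Whether the probes of one copy also bind RNA of the other was not tested.

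The activating enzyme dio2 was read by 2 probe sets of dio2.L, both dim throughout. The S1 probe set ranged over the 30 arrays between 2.32 and 39.6 units with a median of 15.2, and its highest stage mean was 31.4 ± 11.6 units at stage 48 (SD, n = 2), 0.171 of the array median. Its F test without a filter gave an adjusted p of 0.13 in limma. The A1 probe set ranged between 1.31 and 18.1 units, with its highest stage mean of 13.7 units at stage 23. Its stage 21 exceeded stage 11 in the fit without a filter (11.4 and 1.63 units, log2 change 2.82, limma adjusted p = 0.014), where 64.3% of all probe sets were called. The call was lost without replicate 2 of stage 11 (adjusted p = 0.071) or replicate 2 of stage 21 (0.058). All dio2 values lay under the floor, so that neither the presence nor the absence of its RNA was shown.

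**Figure D2:**
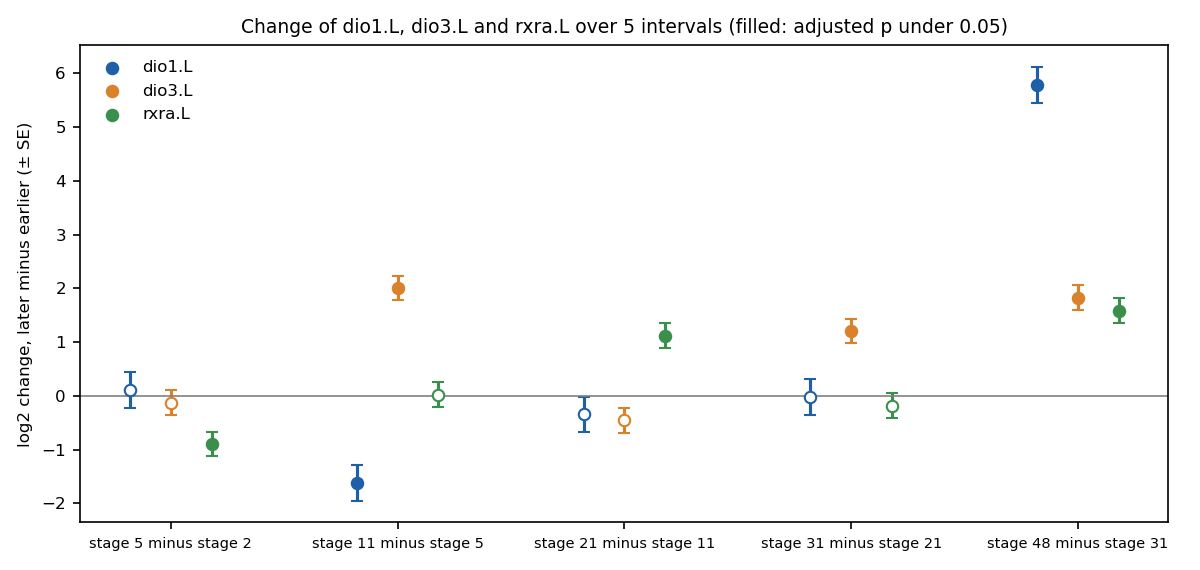
Log2 change with its standard error (later minus earlier stage) of dio1.L, dio3.L and rxra.L over 5 intervals, with filled points for an adjusted p under 0.05. Between stage 11 and stage 5 dio1.L is lower and dio3.L higher at the later stage, and all 3 probe sets are higher at stage 48 than at stage 31, dio1.L by 5.79, dio3.L by 1.83 and rxra.L by 1.59.

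The receptor thra, known in the frog as the one expressed before the hormone appears, was read by 1 probe set that never passed an array's median. The thra.L signal was 62.0 and 49.7 units at stage 2, 60.6 and 44.4 at stage 5, 38.3 and 42.6 at stage 9, 36.2 and 5.57 at stage 11, 32.8 and 4.80 at stage 13 and 44.5 and 31.6 at stage 17. It was 32.1 and 26.5 units at stage 19, 40.5 and 7.50 at stage 21, 23.8 and 18.8 at stage 23, 19.7 and 24.4 at stage 26, 32.2 and 18.1 at stage 28 and 28.0 and 21.0 at stage 31. It was 38.4 and 31.4 units at stage 37/38, 71.2 and 54.1 at stage 43 and 126 and 126 at stage 48. The replicates of stages 11, 13 and 21 lay far apart, while both arrays of stage 48 exceeded all other arrays.

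Relative to its own array's median, thra.L stood at 0.521 at stage 2, 0.135 at stage 26, 0.148 at stage 31, 0.346 at stage 43 and 0.688 at stage 48. In the fit without a filter, stage 48 exceeded stage 31 by a log2 change of 2.38 (SE 0.80, limma adjusted p = 0.015), where 54.9% of all 32539 probe sets were called. Without replicate 2 of stage 31 the adjusted p was 0.083, and without either replicate of stage 48 it was 0.058. Stage 48 against stage 2 had a log2 change of 1.18 (limma adjusted p = 0.18), with a difference from the cleaving embryo that did not pass the test.

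The partner receptor rxra.L was low in the blastula and highest at stage 48. Its signal was 78.9 and 59.1 units at stage 2, 39.1 and 34.2 at stage 5, 27.5 and 29.0 at stage 9, 39.4 and 35.0 at stage 11, 40.8 and 62.2 at stage 13 and 60.7 and 70.9 at stage 17. From stage 19 to stage 43 the arrays lay between 56.9 and 106 units, and at stage 48 they read 196 and 231. Only these last arrays passed their median, and no array of another stage overlapped them.

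The mean of rxra.L was 213 ± 25.0 units at stage 48 and 70.9 ± 0.680 units at stage 31 (SD, n = 2 each), a log2 change of 1.59 (SE 0.23, limma adjusted p = 4.0e-06) and at least 1.28-fold against the floor. In this interval 69.4% of the tested probe sets were called, 29.7% as higher. In the last step, stage 48 over stage 43 had a log2 change of 1.11 (limma adjusted p = 4.7e-04) and at least 1.17-fold, where 46.1% were called. Against stage 2 the log2 change was 1.64 (limma adjusted p = 1.2e-06), at least 1.98-fold, where 90.4% were called. Since rxra.L passed the filter through stage 48 alone, these stage 48 contrasts lean towards a rise by selection. Under the median, stage 21 exceeded stage 11 (80.6 and 37.2 units, log2 change 1.12, limma adjusted p = 1.8e-04) in an interval that called 79.6% of the probe sets. Stage 5 was lower than stage 2 (36.7 and 69.0 units, log2 change -0.90, limma adjusted p = 0.0050), where 32.0% were called. That early fall was lost without replicate 1 of stage 2 (log2 change -0.69, adjusted p = 0.071).

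**Figure D3:**
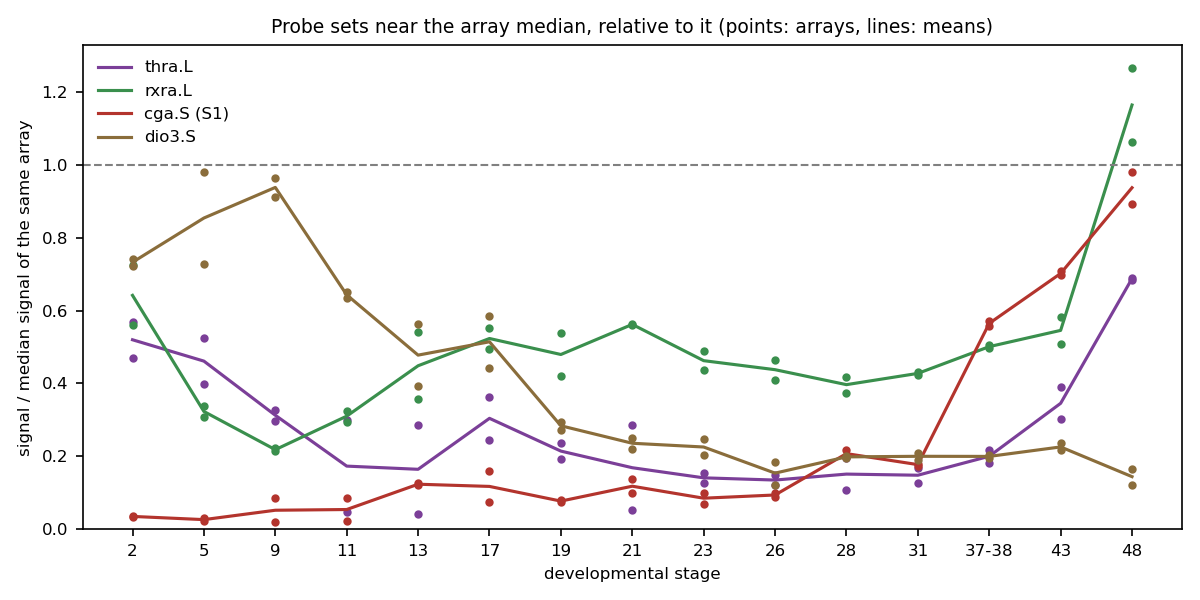
Signal divided by the median signal of the same array against developmental stage for the probe sets that lie near that median, with a point per array and lines through the stage means. At stage 48 thra.L stands at 0.688 and the S1 probe set of cga.S at 0.937 of the median, their highest values in the course.

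For klf9, the directly induced target, the probe set of klf9.L was dim on every array, between 1.32 and 16.6 units with a median of 7.70. Its stage means were highest at stage 28 (14.8 units) and stage 48 (14.1 units), under 0.1 of the array median. In the fit without a filter the log2 change of stage 48 over stage 31 was 2.23 (SE 0.83, limma adjusted p = 0.028), with means of 14.1 and 3.93 units. Without replicate 2 of stage 31 the log2 change was 1.12 (adjusted p = 0.36). The call was also lost without replicate 1 or 2 of stage 48 (adjusted p = 0.098 and 0.080) and with quantile normalization (0.062). Against stage 2 the log2 change was 2.56 (limma adjusted p = 0.0084), and 0.41 (adjusted p = 0.64) with quantile normalization. A second pair of probe sets carries the symbol klf9-b, a synonym of klf9.L in RefSeq, and fell outside the rule. Those read between 10.4 and 35.5 units and between 2.16 and 68.8 units, also under the median of all 30 arrays.

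The pituitary hormone subunit cga had 1 probe set that rose close to the array median and 2 that stayed near the bottom of the scale. The S1 probe set of cga.S read 3.65 and 3.81 units at stage 2, 2.63 and 3.25 at stage 5, 2.37 and 11.1 at stage 9, 10.3 and 2.63 at stage 11, 14.4 and 13.8 at stage 13 and 19.6 and 9.62 at stage 17. It read 9.92 and 11.1 units at stage 19, 19.5 and 14.2 at stage 21, 10.7 and 14.8 at stage 23, 14.5 and 16.2 at stage 26, 35.7 and 33.4 at stage 28 and 29.7 and 28.9 at stage 31. It read 98.1 and 98.8 units at stage 37/38, 129 and 125 at stage 43 and 165 and 179 at stage 48. The 6 arrays of the last 3 stages exceeded all 24 earlier ones, and the stage means stood at 0.177 of the array median at stage 31, 0.565 at stage 37/38, 0.702 at stage 43 and 0.937 at stage 48.

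In the fit without a filter, the S1 probe set of cga.S averaged 172 ± 10.4 units at stage 48 and 29.3 ± 0.565 units at stage 31 (SD, n = 2 each), a log2 change of 2.55 (SE 0.61, limma adjusted p = 0.0013). Against stage 2 the log2 change was 5.53 (limma adjusted p = 4.2e-08). The other subunit of thyrotropin, tshb, was not read, so that these values of cga do not measure that hormone. The A1 probe set of cga.S read between 1.70 and 30.3 units and the probe set of cga.L between 0.963 and 11.5 units. The unfiltered F test called the A1 probe set (limma adjusted p = 0.014), as it did 89.6% of all probe sets. Its stage means were highest at the last 3 stages, with 9.41 ± 5.14, 19.4 ± 15.5 and 13.0 ± 1.00 units (SD, n = 2 each). The difference of cga.L minus the S1 probe set of cga.S changed over the stages (F test, limma adjusted p = 7.3e-15), as did that of the A1 minus the S1 probe set of cga.S (adjusted p = 1.2e-10). For the A1 probe set of cga.S against cga.L, and for both probe sets of dio2.L, the limma adjusted p of the F test was 0.074 and 0.28. Whether the A1 and S1 probe sets of cga.S, or those of dio2.L, read the same RNA was not tested. Of the pituitary cell markers read, pomc, the precursor of corticotropin and melanotropin, averaged 705 units at stage 48, while gh1, growth hormone, lay under the median of all 30 arrays.

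Over all stages and neighbouring steps, the 3 tested members had 11 called steps, 4 in dio1.L, 5 in dio3.L and 2 in rxra.L, and 34.7% of all tests of tested probe sets over the 14 steps were calls. Between stage 48 and stage 31, all 3 were called higher, as were 29.7% of all tested probe sets. All 3 lay under the floor at stage 31, and rxra.L passed the filter through stage 48 alone. That count therefore leans towards a rise. Without a filter, 6 of the 11 were called in that interval, all higher in stage 48, where 54.9% of all probe sets were called, 25.1% as higher and 29.9% as lower. The 6 were dio1.L, dio3.L, rxra.L, thra.L, klf9.L and the S1 probe set of cga.S. The thra.L and klf9.L calls have the limits given above, each being lost without single arrays. Against stage 2, 5 probe sets were called higher at stage 48 and 1 (dio3.S) lower without a filter, where 78.2% of all probe sets were called. Between stage 21 and stage 11, 5 of the 11 were called without a filter, where 64.3% of all were: rxra.L, klf9.L, the A1 probe set of dio2.L and the S1 probe set of cga.S were higher at stage 21 and dio3.S lower. The klf9.L call (log2 change 1.94, limma adjusted p = 0.047) was lost in 29 of 41 alternatives, 22 of them fits without a single array. The call of the S1 probe set of cga.S (log2 change 1.68, limma adjusted p = 0.022) was lost in 5 of 41, with a log2 change of 0.69 without replicate 2 of stage 11 (adjusted p = 0.39), and it was also lost without replicate 1 of stage 21 (adjusted p = 0.11). That of dio3.S was lost with poly-A scaling (log2 change -0.39, adjusted p = 0.32).

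Among receptor partners and cofactors, 12 of 17 listed genes had a tested probe set. Of these, 4 were higher and 6 lower at stage 48 than at stage 31, beside 29.7% and 39.7% of all tested probe sets. Against stage 2, 2 were higher and 10 lower, where 45.7% of all tested probe sets were lower, with a median log2 change against stage 2 of -1.40 beside -0.04 over all tested probe sets. These directions turn with the scaling: with the arrays scaled to the poly-A controls, 6 were higher and 2 lower than at stage 31, and 5 higher and 3 lower than at stage 2, with a median of 0.21 against stage 2. Quantile normalization gave 2 higher and 9 lower against stage 2, and median centring 2 and 10. The arginine methyltransferase prmt1, a coactivator of the receptor, fell to 1283 units at stage 48, against 8733 units at stage 31 (log2 change -2.77, SE 0.05, limma adjusted p = 2.1e-19). The methyltransferase carm1 averaged 771 units at stage 48 and 2042 units at stage 31 (log2 change -1.41, limma adjusted p = 1.9e-14). The corepressor subunit tbl1xr1 averaged 139 units at stage 48 and 711 units at stage 2, at least 3.87-fold lower. All 3 of these falls were also called with poly-A scaling. A further retinoid X receptor, rxrg, ran unlike rxra: it read 492 units at stage 2, 706 at stage 5, 596 at stage 9 and 197 at stage 11 and lay under the median from stage 13 on.

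Of hormone transport and binding genes, 4 of 9 were tested, and all 4 were higher at stage 48 than at stage 2, where 44.7% of all tested probe sets were higher. A gene dim at stage 2 can pass the filter only through later stages, so that counts against stage 2 lean towards a rise. Between stage 48 and stage 31, 1 was higher and 2 were lower, beside 29.7% and 39.7% of all tested probe sets. Transthyretin (ttr), which carries the hormone in plasma, averaged 961 units at stage 31, 13454 at stage 37/38, 16279 at stage 43 and 4076 at stage 48. Its fall in the last step, where dio1.L rose most, had a log2 change of -2.00 (SE 0.39, limma adjusted p = 2.9e-04). The heavy chain slc3a2, which pairs with the amino acid and hormone carriers slc7a5 and slc7a8, averaged 2672 units at stage 21 and 165 units at stage 11, 16.2-fold higher (log2 change 4.01, limma adjusted p = 1.7e-21). The light chain slc7a8 averaged 2978 and 706 units at the same stages (4.22-fold), and slc7a5 averaged 364 units at stage 11 and 43.5 units at stage 5, at least 3.18-fold higher.

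For hormone synthesis in the thyroid, 5 of 14 listed genes were tested. At stage 48, 3 were higher and 1 lower than at stage 31, where 29.7% of all tested probe sets were higher and 39.7% lower. Of the higher genes, iyd and foxe1 averaged 39.8 and 89.3 units at stage 31, under the floor, so that this count leans towards a rise. All 5 were higher at stage 48 than at stage 2, where 44.7% of all were higher, and 4 of the 5 with quantile normalization or median centring (iyd was not called, with adjusted p = 0.057 and 0.063). This count has the same lean: nkx2-1 averaged 9.95 units at stage 2, under the floor. The iodide transporter slc5a5 averaged 602 units at stage 2, 59.8 at stage 11, 203 at stage 31, 456 at stage 43 and 2963 at stage 48. Stage 48 exceeded stage 31 by 14.6-fold (log2 change 3.87, SE 0.22, limma adjusted p = 2.6e-12) and stage 43 by 6.50-fold. The deiodinase of iodotyrosines, iyd, averaged 306 units at stage 48 and 39.8 units at stage 31, at least 1.84-fold higher (log2 change 2.94, limma adjusted p = 3.3e-04). The factor nkx2-1, used in the thyroid and also in the forebrain and lung, averaged 178 units at stage 48 and 288 units at stage 31 (log2 change -0.70, limma adjusted p = 0.041, and -0.32 with adjusted p = 0.43 under poly-A scaling), and hhex, used in the thyroid and liver, was brightest at stage 11 (308 units). The thyroid factor pax8 lay under the median of all 30 arrays, and tg, tpo and tshr had no single-symbol probe set. Of the gland markers chosen (these 4, slc5a5, nkx2-1 and foxe1), only the last 3 passed a median. Since slc5a5 was also bright at stage 2 (602 units), a cleavage stage, a bright signal of it does not by itself mark the gland. Which tissue gave its signal at stage 48 was not tested, and the stage 2 value does not tell it.

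Of 13 genes known to be induced by the hormone at metamorphosis, dio3 among them, 7 were tested. All 7 were higher at stage 48 than at stage 2, where 44.7% of all tested probe sets were higher, with 5 of 7 under quantile normalization and 6 of 7 under median centring. The named genes mmp2, mmp13, shh and dio3 lay under the floor at stage 2. They passed the filter only through later stages in which they were bright, so that this count is no evidence about the list. Between stage 48 and stage 31, 2 were higher (dio3 and cebpd) and 1 lower (mmp11), beside 29.7% and 39.7% of all tested probe sets. The matrix protease mmp2 averaged 1462 units at stage 48 and 4.02 units at stage 2, a rise of at least 13.6-fold (limma adjusted p = 1.5e-07). For mmp13 the means were 720 and 9.31 units at these stages, at least 6.71-fold apart. The log2 signals of both were higher well before the tadpole. For mmp2, stage 11 exceeded stage 5 by a log2 change of 5.27 (limma adjusted p = 1.8e-04). Both of these stages lay under the floor on average, so that no measured fold is read. The mean of mmp2 was still under the floor at stage 21, and stage 31 over stage 21 was not called (log2 change 2.32, limma adjusted p = 0.065). For mmp13, stage 21 exceeded stage 11 by 4.89 (limma adjusted p = 3.0e-05). Neither was called between stage 48 and stage 31 (log2 change 1.79 and 0.19, limma adjusted p = 0.13 and 0.85). The signalling protein shh averaged 646 units at stage 48 and 5.24 units at stage 2, at least 6.02-fold higher, but had risen by stage 21, at 732 units. The induced factor thibz lay under the filter at every stage.

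Of 17 pituitary and hypothalamic genes, 3 were tested, and 1 (pomc) was higher and 1 (eya3) lower at stage 48 than at stage 31, beside 29.7% and 39.7% of all tested probe sets. Pomc averaged 62.9 units at stage 31, 159 at stage 37/38, 381 at stage 43 and 705 at stage 48. Stage 48 exceeded stage 31 by at least 4.25-fold (log2 change 3.49, SE 0.69, limma adjusted p = 1.6e-04). Pomc lay above the array median on 4 arrays and under the floor at stage 31. It could pass the filter only through later stages, so that this rise and the count of 1 higher lean on that selection. The arrays of pomc, like those of the S1 probe set of cga.S, were higher from stage 37/38 on than at any stage before. The factor eya3 averaged 332 units at stage 48 and 465 units at stage 31 (log2 change -0.49, limma adjusted p = 2.3e-04, and -0.11 with adjusted p = 0.58 under poly-A scaling), and hesx1, a factor of the anterior neural plate and pituitary, was brightest at stage 13 (1728 units). The releasing hormone trh and its receptor trhr lay under the filter at every stage.

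Deiodinases are selenoproteins, and 3 of 7 genes of selenocysteine insertion were tested. None was higher and 2 were lower at stage 48 than at stage 31, where 39.7% of all tested probe sets were lower. Of these, sephs1, a homologue of selenophosphate synthetase, averaged 1443 and 1728 units (log2 change -0.26, limma adjusted p = 0.013), and trnau1ap, a partner of the selenocysteine tRNA, 581 and 1034 units (log2 change -0.83, limma adjusted p = 1.0e-08). The fall of sephs1 was not called with poly-A scaling, where its log2 change was 0.12 (adjusted p = 0.54), or with quantile normalization, where it was -0.17 (adjusted p = 0.073). The enzyme sepsecs averaged 222 units at stage 48 and 219 units at stage 31.

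**Figure D4:**
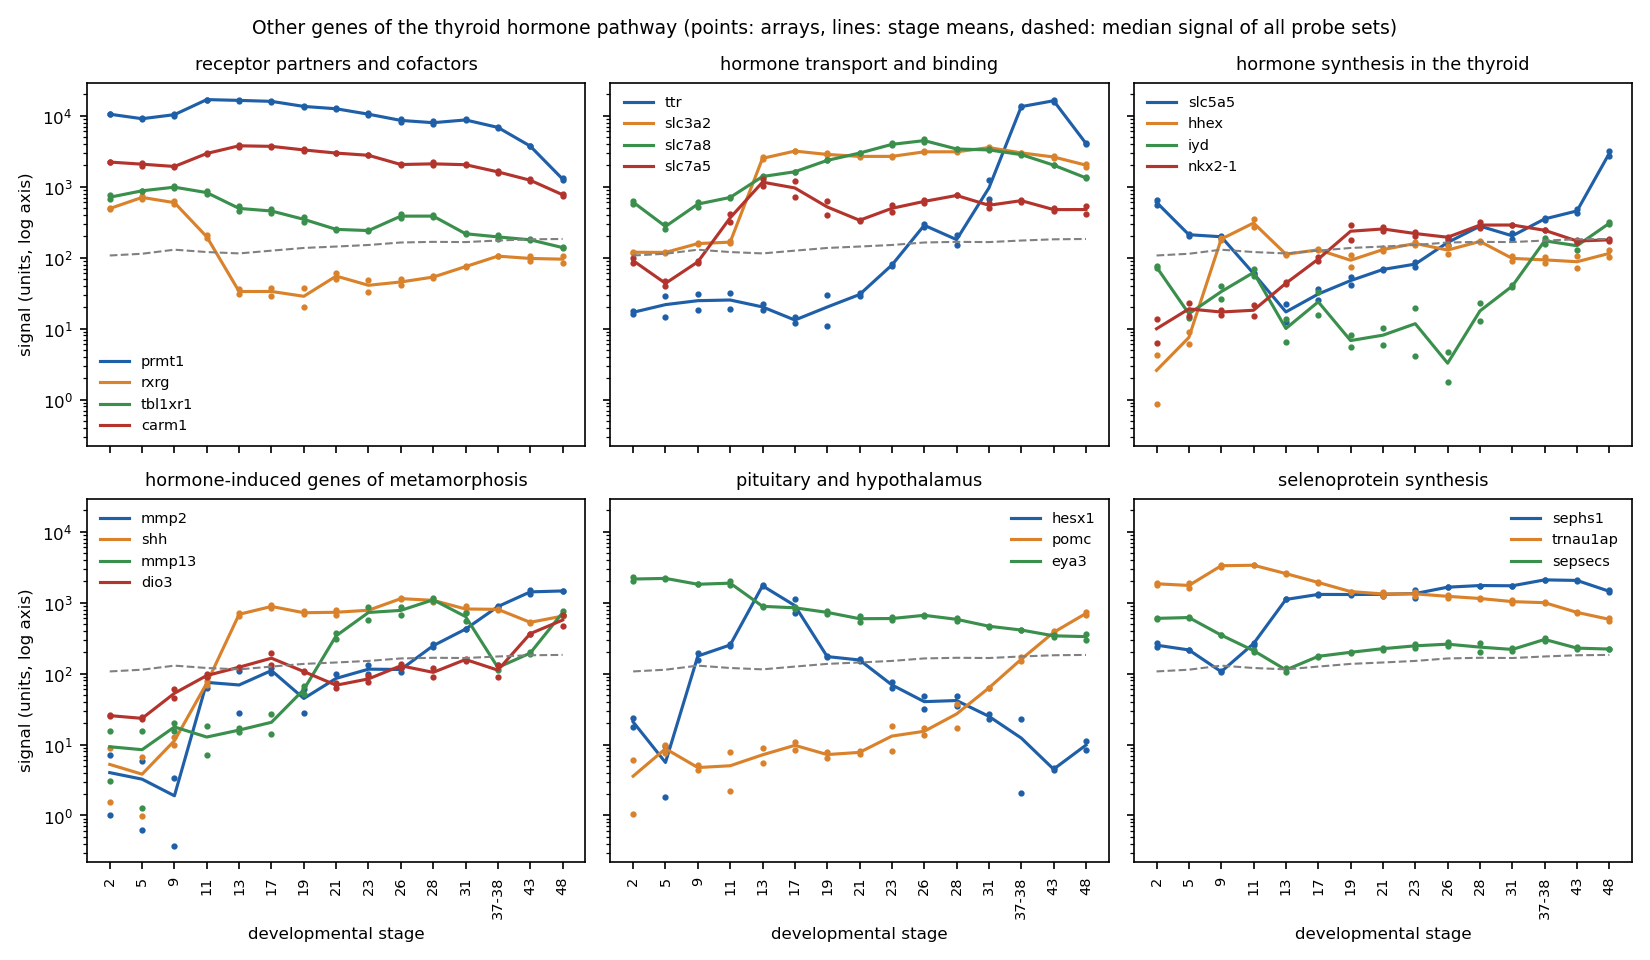
Signal in units on a log axis against developmental stage for other genes of the pathway, by list, with a point per array, lines through stage means and a dashed line for the median signal of all probe sets. The iodide transporter slc5a5 reads 2963 units at stage 48 and ttr peaks at 16279 units at stage 43, while prmt1 falls to 1283 units at stage 48.

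By the correlation of stage means of log2(signal + 50) over the 15 stages, the genes most like dio1.L were ccl5 (0.97), a chemokine, XB986081 (0.97), a gene without a descriptive name, and acaa1 (0.96), a peroxisomal thiolase. They averaged 735, 1042 and 3404 units at stage 48, against 1.67, 11.1 and 357 units at stage 31. The genes most like dio3.L were slc3a1 (0.93), an amino acid transporter subunit, krt18.3 (0.91), a keratin, and ip6k2 (0.90), an inositol phosphate kinase, with 1324, 1106 and 2411 units at stage 48 and 101, 214 and 676 units at stage 31. Those most like rxra.L were gria2 (0.93), a glutamate receptor subunit, scd (0.93), a fatty acid desaturase, and masp2 (0.93), a complement protease, with 275, 1646 and 835 units at stage 48 and 79.2, 149 and 35.3 units at stage 31. The 15 points share their arrays and the order of development.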

How the data were processed

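RNA was extracted with a lipid tissue kit and labelled with biotin in 1 cycle, per the labels' protocols. The authors deposited a MAS5 signal intensity per probe set, per the submitters' processing notes, and no version is given in the sources used here. All 30 arrays have the same 2% trimmed mean of 500, so no further normalization was applied. Columns were matched to stages by sample title. Names came from the platform annotation: of 32539 probe sets (96 controls left out), 15495 had 1 symbol, 279 several and 16765 none, and 15384 of the first were found in RefSeq (assembly v10.1) by Entrez identifier. No sequences or coordinates are given.

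The comparisons used log2 signals and limma 3.58.1 (R 4.3.3), with 1 mean per stage over 30 arrays, eBayes with a trend and robust, and a threshold of 0.05 after Benjamini-Hochberg adjustment over the 23403 probe sets with both arrays of a stage above the array median (50th percentile). Adjusted p-values are from this fit or, for dim members, from the same fit over all 32539. The filtered fit was also run on simulated data in which few probe sets changed between stage 48 and stage 31. In the real data 69.4% were called in that interval, so that the simulation does not match it. The fit without a filter was not simulated. The probe set with the highest mean led a gene. From each list, up to 4 genes with the largest range of stage means were named, and for each tested member the 3 genes with the highest correlation. The members, lists and tests were chosen with earlier results of these data known. Replicate numbers did not pair the arrays: over 105 pairs of stages, correlations of deviations ran between -0.059 and 0.041, and 0 exceeded 0.1. Alternatives were another normalization, constant, filter, threshold and fit, and leaving out each array. The alternatives without a filter, the unfiltered test of probe set pairs and the list counts under each scaling were chosen after seeing the data. Precision is limited by 2 arrays per stage.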

Additional observations from a re-analysis of the deposited data

How the results depend on the processing

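Counts of called members were 3 for the F test and, for the intervals in order of stage, 1 (stage 5 minus 2), 2 (11 minus 5), 1 (21 minus 11), 1 (31 minus 21) and 3 (48 minus 31, and 48 minus 2), and 11 over neighbouring steps. Beside them, 99.8% of all tested probe sets were called by the F test and 34.7% of all tests over the steps were calls. For the intervals in the same order the shares were 32.0%, 67.0%, 79.6%, 52.4%, 69.4% and 90.4%. A filter at the 75th percentile left 1 member to test, and the counts were 1 for the F test, 0, 1, 0, 0, 1 and 1 for the intervals and 4 for the steps. With no filter they were 9 for the F test, 5 for stage 21 minus 11 and 6 for both comparisons of stage 48. Of all 32539 probe sets, 89.6%, 64.3%, 54.9% (stage 48 minus 31) and 78.2% (48 minus 2) were then called. Shares under the other settings are not given here, so that those counts are set against the main counts alone. Poly-A scaling gave 0 for stage 5 minus 2 and 7 for the steps, and a change of at least 2-fold gave 0 and 6. Quantile normalization and median centring each gave 2 for stage 21 minus 11. The added call was a fall of dio3.L (log2 change -0.78 and -0.72), whose log2 change was 0.35 with poly-A scaling and not called. Without single arrays the counts stayed at 3 for the F test and both comparisons of stage 48, at 2, 1 and 1 for the intervals between stages 5 and 31, and ran between 0 and 1 for stage 5 minus 2 (0 without replicate 1 of stage 2), between 9 and 15 for the steps, and between 3 and 4 for the 5 unfiltered probe set pairs (3 in the main setting). The only reversal was dio3.S, stage 48 minus 2, at 0.016 with poly-A scaling and no filter. Without the constant of 50, 1 of 3 genes most like dio1.L, 1 of 3 like rxra.L and 2 of 3 like dio3.L were kept.

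With the replicate number as a block, the counts were 3 for the F test, 1, 2, 1, 1, 3 and 3 for the intervals, 10 for the steps (dio3.L, stage 26 minus 23, was lost at adjusted p = 0.052) and 4 for the pairs; no other called change of a tested member was lost. The planned pair test among bright probe sets could not be run.

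The rises of stage 48 over stage 31 were called in 43 of 43 alternatives for dio1.L (log2 change 4.60 to 6.27), and in 42 of 42 for dio3.L (1.55 to 2.21) and rxra.L (1.12 to 1.97). That of thra.L was lost in 4 of 41 alternatives, 3 of them fits that left out an array of stage 31 or 48. The call of dio3.L at stage 26 over 23 (log2 change 0.62, limma adjusted p = 0.045) was lost in 20 of 41. Most alternatives left out a single array, usually of a stage outside the contrast. Such a fit keeps the contrast's own arrays, so that these counts are no measure of how firm a call is. Signals under the array median limit what can be read of thra, dio2, klf9 and cga.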
